A study of Homo sapiens with 9 samples.

Results

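Ribosome biogenesis factors are the proteins that transcribe, modify, cut and fold ribosomal RNA and assemble it with ribosomal proteins. The 45 genes described here were chosen by symbol from a list, with earlier results of these data known. They were found in the count table, which holds 57820 genes, and all 45 passed the filter on low counts in every comparison. Their levels per transcript length in CTRL ran from a mean of 6.09 TPM (transcript abundance scaled by length and library) for UTP20 to 1449 TPM for NPM1. By role they comprise 2 subunits of RNA polymerase I, 3 core proteins of box C/D snoRNPs, 3 of box H/ACA snoRNPs, 4 abundant nucleolar or rDNA-associated proteins, 17 factors of the small subunit and 16 of the large subunit.

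RNA polymerase I transcribes ribosomal DNA in the nucleolus. Small nucleolar RNPs then guide the methylation and pseudouridylation of the transcript, the small subunit processome folds and cleaves its 5′ part, and a separate set of factors matures the precursor of the large subunit before both are exported. Growing cells, leukemia lines among them, transcribe these genes at high levels, and MYC is a well known activator of many of them.

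RNA was sequenced from MOLM13, an established human acute myeloid leukemia line with a KMT2A rearrangement, in 9 libraries of 3 biological replicates per group. CTRL cells carried a non-targeting sgRNA (sgNT), RBM5 KO cells an sgRNA against RBM5, an RNA-binding protein of the spliceosome, and RBM5 OE cells a lentiviral RBM5 cDNA. The labels list no drug treatment in any group, name no batch and give no day after transduction, and the study's methods describe Cas9-expressing cells and an EFS-driven vector with a P2A-linked fluorescent protein. RBM5 OE cells carried the cDNA vector and CTRL cells an sgRNA, so effects of the vector and of RBM5 itself cannot be told apart, and the labels do not describe RBM5 KO as a single clone.

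RBM5 measured 122, 117 and 113 CPM (counts scaled to library size by TMM) in CTRL 1 to 3, 70.5, 73.9 and 79.3 in RBM5 KO and 379.5, 414 and 415 in RBM5 OE. The groups did not overlap, and RBM5 RNA was lowered rather than lost in RBM5 KO (log2 fold change −0.65, SE 0.0835, edgeR adjusted p = 0.00692). Without CTRL 1 this adjusted p was 0.0606. With limma it was 0.0557 on log2(TPM + 1) and 0.0542 on log2(TPM + 0.1). Libraries held 25522952 to 27871988 estimated counts. All 9 myeloid markers passed the filter, with a summed level of 2469 to 2642 TPM in CTRL, 3045 to 3536 in RBM5 KO and 1818 to 1849 in RBM5 OE. LYZ, lysozyme, made up most of these differences, at 1090 to 1279 TPM in CTRL, 1864 to 2070 in RBM5 KO and 481.4 to 498.5 in RBM5 OE. Without LYZ the other 8 summed to 1364 to 1390 TPM in CTRL, 1181 to 1466 in RBM5 KO and 1325 to 1365 in RBM5 OE. The groups overlapped, barely for CTRL and RBM5 OE, and the sum held markers that moved in opposite directions. From CTRL to RBM5 OE, mean SPI1 went from 355 to 417.8 TPM and CEBPA from 412 to 349.5. From CTRL to RBM5 KO, mean FLT3 went from 155.5 to 102.1 TPM and MPO from 37.09 to 49.88. In RBM5 KO 1 of the 9 markers was lower and 1 higher at an adjusted p under 0.05, where 1.67% and 0.837% of all genes were. By contrast, 9 markers of other lineages summed to between 2.44 and 7.18 TPM in any library, with HBB and EPCAM at 0 in every one. In these bulk samples, fewer cells expressing a gene and less RNA per cell cannot be told apart.

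RBM5 KO 1 and CTRL 3 stood apart from the other libraries of their groups. Of the 45 factors, 44 were highest within the RBM5 KO group in RBM5 KO 1, with a median of 0.36 log2 units above the other RBM5 KO libraries, and 28 were highest within CTRL in CTRL 3, with a median of 0.11. Over all genes tested, 40% were highest in RBM5 KO 1 and 35.1% in CTRL 3. All 26 DNA replication genes were highest in those same libraries of their groups. Counts of called factors are therefore also given without 1 or both of these libraries, and other results with all libraries unless stated.

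Most ribosome biogenesis factors were lower in RBM5 OE than in CTRL. Of the 45 factors, 38 fell against CTRL at an adjusted p under 0.05 (84.4%) and 0 rose, while over all 14370 genes tested 20.2% were lower and 19.8% higher. None of the 45 was higher at an unadjusted p under 0.05 either, and DESeq2 called 39 lower and 0 higher. The median log2 fold change of the factors was −0.46, against 0.01 over all genes, and their range ran from −1.15 (BOP1) to 0.15 (NOP58). All 3 RBM5 OE libraries lay below all 3 CTRL libraries for 39 factors (86.7%), compared with 25.5% of all genes, and above them for 0, compared with 26.1%. A fall of more than 0.5 log2 units was called for 21 factors, against 7.91% of all genes. Without CTRL 3 the count was again 38 lower, and the median was −0.43. Of the 9 myeloid markers, 4 were lower in RBM5 OE than in CTRL, 1 (SPI1) was higher and 4 were not called. Their summed level without LYZ barely overlapped CTRL. Their part in the result was not tested.

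**Figure D1:**
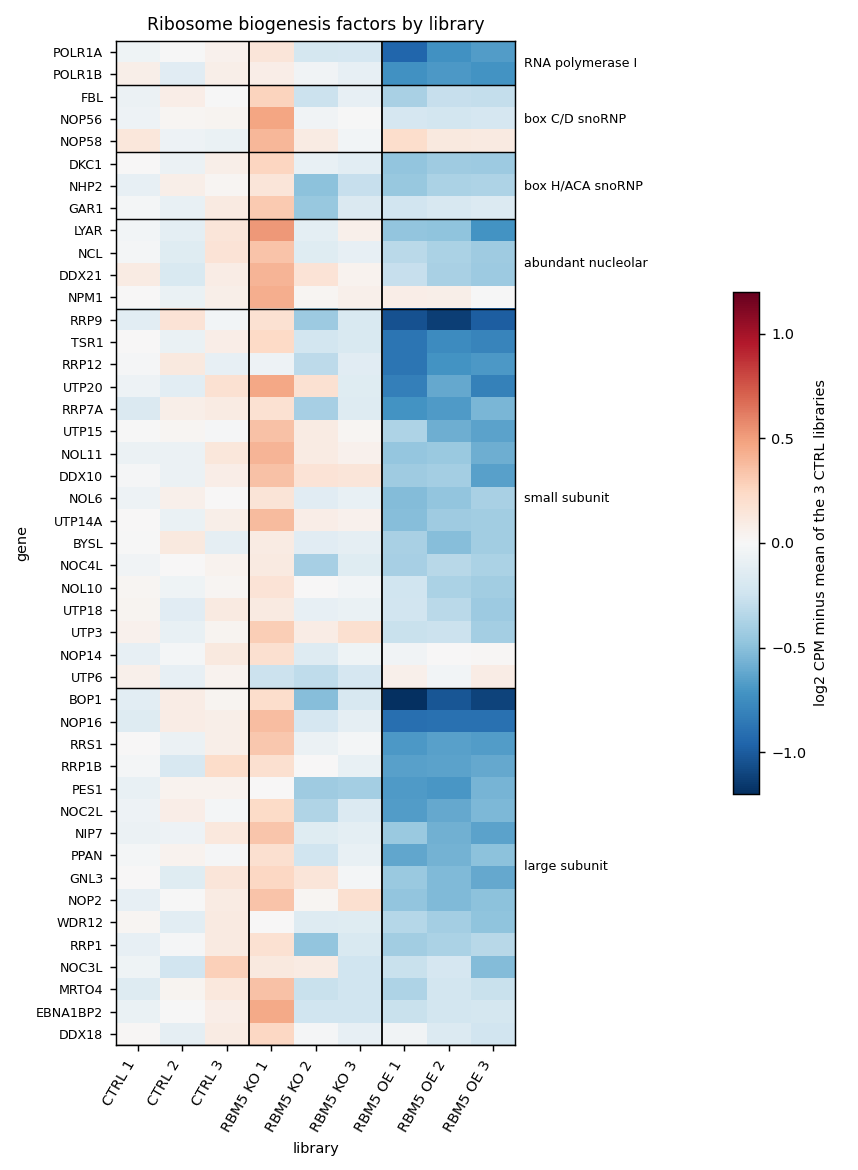
Each row is a ribosome biogenesis factor, grouped by role and sorted by its change in RBM5 OE, and each column a library. Color gives log2 CPM minus the mean of the 3 CTRL libraries. The RBM5 OE columns are blue in most rows, with median values of −0.44, −0.43 and −0.49, and RBM5 KO 1 is red, with a median of 0.25, where RBM5 KO 2 and RBM5 KO 3 have −0.14 and −0.10.

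Both RNA polymerase I subunits fell in RBM5 OE. POLR1B, the second largest subunit of the enzyme, measured 86.7, 75.1 and 87.1 CPM in CTRL, 87.5, 80.1 and 77.1 in RBM5 KO and 49.8, 51 and 50.2 in RBM5 OE. POLR1A, the catalytic large subunit (GRCh37 chr2:86247339-86333278, minus strand), measured 158, 163 and 170.2 CPM in CTRL, 182, 142 and 142 in RBM5 KO and 84.7, 99 and 103 in RBM5 OE. For both genes the RBM5 OE libraries lay below all 6 others. The log2 fold change against CTRL was −0.72 for POLR1B (SE 0.0774, edgeR adjusted p = 4.14e-05) and −0.78 for POLR1A (SE 0.0804, edgeR adjusted p = 3.18e-05).

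Among the box C/D proteins, which assemble the particles that methylate ribosomal RNA, 2 of 3 fell in RBM5 OE, and the median log2 fold change of the 3 was −0.21. FBL, the methyltransferase fibrillarin, measured 240.0, 267 and 252 CPM in CTRL, 304, 212 and 236 in RBM5 KO and 192, 208 and 208 in RBM5 OE, a log2 fold change of −0.32 against CTRL (SE 0.0668, edgeR adjusted p = 0.00301). NOP56, a scaffold protein of the same particle, measured 285, 303 and 305 CPM in CTRL, 414, 290.0 and 297 in RBM5 KO and 259, 255 and 259 in RBM5 OE (−0.21, SE 0.0600, edgeR adjusted p = 0.0174). RBM5 OE lay below CTRL without overlap for both, yet the call for NOP56 was lost without OE 2 (adjusted p = 0.0903) or OE 3 (0.0547).

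NOP58, the partner of NOP56 in the particle, was not called. It measured 89, 77.4 and 76.3 CPM in CTRL and 93.5, 87.4 and 87.2 in RBM5 OE, and these ranges overlapped (log2 fold change 0.15, 95% interval −0.02 to 0.31, edgeR adjusted p = 0.154). Of all 45 factors it had the highest value in this comparison.

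In the box H/ACA particle, which converts uridine to pseudouridine, 2 of 3 proteins fell, and the median was −0.40. DKC1, the pseudouridine synthase dyskerin, measured 153, 146 and 161 CPM in CTRL, 183, 144 and 140.3 in RBM5 KO and 110.2, 114 and 113 in RBM5 OE (−0.45, SE 0.0658, edgeR adjusted p = 0.000306). NHP2, a core protein of the particle, measured 114, 128 and 124 CPM in CTRL, 135, 86.6 and 101 in RBM5 KO and 89.1, 94 and 94.4 in RBM5 OE (−0.40, SE 0.0689, edgeR adjusted p = 0.000851). RBM5 OE was below CTRL in all libraries for both genes, and for NHP2 the level in RBM5 KO 2 was lower than in any RBM5 OE library. GAR1, a further core protein, measured 28.1, 26.9 and 31 CPM in CTRL and 24.3, 24.9 and 25.5 in RBM5 OE, and its difference of −0.20 was not called (SE 0.0831, edgeR adjusted p = 0.0765).

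Of the 4 abundant nucleolar or rDNA-associated proteins, 3 fell. LYAR, a nucleolar protein that binds rDNA chromatin, measured 33.5, 31.6 and 38 CPM in CTRL, 49.2, 31.6 and 35.7 in RBM5 KO and 24.6, 24.4 and 20.6 in RBM5 OE (−0.56, SE 0.0995, edgeR adjusted p = 0.00102). NCL, nucleolin, measured 983, 905 and 1124 CPM in CTRL, 1271, 902 and 932 in RBM5 KO and 797, 770.3 and 744 in RBM5 OE (−0.38, SE 0.0793, edgeR adjusted p = 0.00281). DDX21, an RNA helicase that acts in rDNA transcription and rRNA processing, fell by 0.37 on the log2 scale (SE 0.0843, edgeR adjusted p = 0.00465), from 311, 256 and 309.9 CPM in CTRL to 240.2, 222 and 216 in RBM5 OE. For these 3 genes the RBM5 OE libraries were below all 6 others.

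NPM1, nucleophosmin, an abundant nucleolar chaperone, had the highest level of the 45 per transcript length, a mean of 1449 ± 204 TPM (SD, n = 3) in CTRL. It measured 664, 625 and 696 CPM in CTRL, 893, 671 and 687 in RBM5 KO and 698, 695 and 658 in RBM5 OE. RBM5 OE overlapped CTRL, with a log2 fold change of 0.05 (95% interval −0.09 to 0.19, edgeR adjusted p = 0.564). NPM1 has many processed pseudogenes, to which the counting could assign reads. Among 45 NPM1P entries, 33 were at 0 in every library, and the sum over the entries ran from 20.5 to 33.9 TPM.

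The 17 small subunit factors had a median log2 fold change of −0.46 in RBM5 OE, and 15 of them fell. RRP9, a protein of the U3 snoRNP that starts small subunit processing, measured 34.4, 42.3 and 36.8 CPM in CTRL, 42.9, 27.7 and 33.1 in RBM5 KO and 18.1, 17 and 18.8 in RBM5 OE (−1.07, SE 0.0935, edgeR adjusted p = 9.96e-06). TSR1, a factor of late small subunit maturation (GRCh37 chr17:2225690-2239951, minus strand), measured 114, 107 and 119.5 CPM in CTRL, 134, 97.2 and 99.8 in RBM5 KO and 61.7, 66.8 and 65.3 in RBM5 OE (−0.81, SE 0.0711, edgeR adjusted p = 1.05e-05). RRP12, needed for maturation and export of the pre-ribosome, measured 119, 130.5 and 112 CPM in CTRL, 115, 96.4 and 109 in RBM5 KO and 65.1, 72.9 and 74.2 in RBM5 OE (−0.77, SE 0.0793, edgeR adjusted p = 3.18e-05). In each of the 3 genes the highest RBM5 OE library was below the lowest library of both other groups.

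The other 12 small subunit factors that fell had log2 fold changes from −0.76 to −0.32. UTP20, a large processome scaffold, changed by −0.76, RRP7A by −0.65 and UTP15 by −0.55 on the log2 scale. The value for UTP15 depended on the scale. It measured 9.69, 8.02 and 8.19 TPM in CTRL and 6.27, 8.1 and 7.53 in RBM5 OE, so that the groups overlapped, and with log2(TPM + 1) in limma the difference was −0.22 and the call was lost (adjusted p = 0.272). NOL11, a processome protein also needed for rDNA transcription, changed by −0.50, the helicase DDX10 by −0.50, NOL6 by −0.46, UTP14A by −0.46, the 40S assembly factor BYSL by −0.44 and NOC4L by −0.37. NOL10 (−0.35), UTP18 (−0.33) and UTP3 (−0.32) were at the small end. The calls for DDX10, BYSL, NOL10, UTP18 and UTP3 were also lost on the TPM scale, with differences from −0.39 (DDX10) to −0.27 (UTP3). RRP7A has a pseudogene, RRP7B, listed at 5.77 to 14.8 TPM, so that its reads could be split.

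NOP14 and UTP6, both processome proteins, were the small subunit factors not called. NOP14 measured 139, 147 and 161 CPM in CTRL, 169.8, 133 and 143 in RBM5 KO and 145, 149 and 150.5 in RBM5 OE, and its RBM5 OE libraries lay inside the CTRL range (log2 fold change −0.01, 95% interval −0.16 to 0.14, edgeR adjusted p = 0.929). UTP6 (GRCh37 chr17:30187923-30228727, minus strand) measured 117, 104 and 115 CPM in CTRL, 93.5, 90.7 and 97.6 in RBM5 KO and 117, 109 and 119 in RBM5 OE. Its RBM5 OE and CTRL libraries overlapped (log2 fold change 0.04, 95% interval −0.12 to 0.20, edgeR adjusted p = 0.688), while its RBM5 KO libraries were below all others in CPM.

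The 16 large subunit factors had the lower median, −0.55, and 14 of them fell. BOP1, PES1 and WDR12 form the PeBoW complex, which processes the large subunit rRNA, and all 3 were lower in RBM5 OE. BOP1 measured 336, 390.3 and 376 CPM in CTRL, 425, 258 and 320.4 in RBM5 KO and 144, 179.7 and 169.9 in RBM5 OE (−1.15, SE 0.0891, edgeR adjusted p = 5.06e-06), the largest fall among the 45. PES1 (GRCh37 chr22:30972612-31003070, minus strand) measured 138, 152 and 151 CPM in CTRL, 148, 109.6 and 111 in RBM5 KO and 91.9, 90.4 and 99.6 in RBM5 OE (−0.65, SE 0.0699, edgeR adjusted p = 4.35e-05). WDR12 changed by −0.42 (SE 0.0783, edgeR adjusted p = 0.00151). All 3 RBM5 OE libraries were below all 6 others in each gene of the complex.

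NOP16, a nucleolar large subunit factor (GRCh37 chr5:175810949-175815928, minus strand), measured 39.3, 46.7 and 46.2 CPM in CTRL, 56.9, 38.1 and 40.7 in RBM5 KO and 23.2, 23.4 and 23.4 in RBM5 OE (−0.91, SE 0.0852, edgeR adjusted p = 1.55e-05). RRS1, which brings the 5S RNP into the pre-ribosome, measured 108, 103 and 114 CPM in CTRL, 136, 103 and 107 in RBM5 KO and 67, 68.6 and 67.7 in RBM5 OE (−0.68, SE 0.0670, edgeR adjusted p = 2.36e-05). In both the RBM5 OE libraries lay within 3 CPM of each other and below all 6 others. RRP1B changed by −0.65, NOC2L by −0.61, NIP7 by −0.56, PPAN by −0.56, GNL3 (nucleostemin) by −0.53 and NOP2, an rRNA methyltransferase, by −0.50. RRP1 (−0.38), MRTO4 (−0.29) and EBNA1BP2 (−0.23) fell least among the large subunit factors. The calls for MRTO4 and EBNA1BP2 were lost without OE 1 (adjusted p = 0.0718 and 0.0639), and that for EBNA1BP2 also without OE 2 (0.0721).

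NOC3L, which acts with NOC2L in pre-60S transport, and the helicase DDX18 were not called. NOC3L had a log2 fold change of −0.34 with the widest spread of the 45 (SE 0.131, edgeR adjusted p = 0.0554) and was called without CTRL 2 (adjusted p = 0.018). GAR1 also passed without CTRL 2 (0.0469). DDX18 stood at −0.14 (SE 0.0777, edgeR adjusted p = 0.161). Of the 38 calls, 35 held whichever single library was left out, the exceptions being NOP56, EBNA1BP2 and MRTO4.

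**Figure D2:**
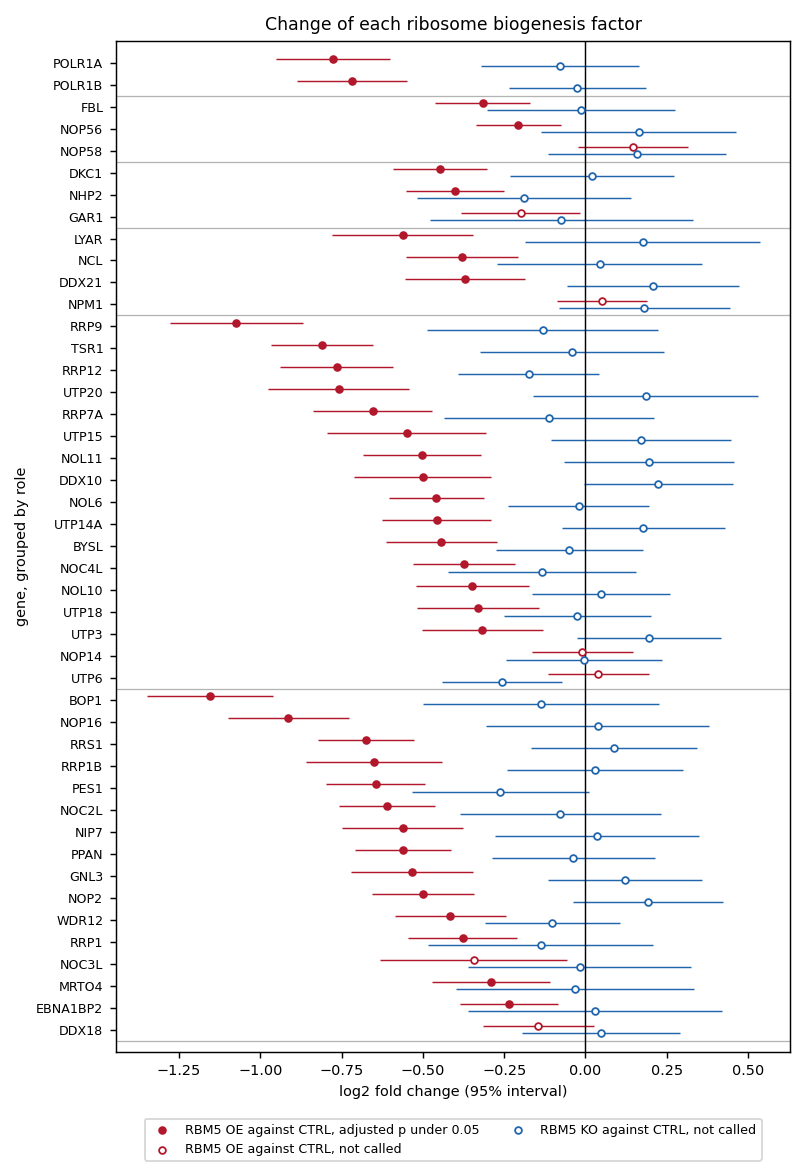
Points give the log2 fold change of each of the 45 factors against CTRL with its 95% interval, in red for RBM5 OE and blue for RBM5 KO. Filled points have an adjusted p under 0.05. The red points are filled for 38 genes, all left of 0, and no blue point is filled.

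In RBM5 KO none of the 45 factors changed at an adjusted p under 0.05, in either direction, by edgeR's quasi-likelihood test. Over all 14218 genes tested 1.67% were called lower and 0.837% higher. DESeq2 also called 0 factors, and at an unadjusted p under 0.05 UTP6 alone was lower and 0 factors were higher. The log2 fold changes of 23 factors were negative and of 22 positive, with a median of −0.005 and a range from −0.26 (PES1) to 0.22 (DDX10). Standard errors ran from 0.0822 to 0.179, compared with 0.0600 to 0.131 in RBM5 OE, and the 95% intervals of single factors reached −0.54 and 0.54. A change of a factor within its own interval was not excluded by these libraries.

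The factors with the smallest p in RBM5 KO were UTP6, DDX10, PES1 and UTP3. UTP6 had a log2 fold change of −0.26 (95% interval −0.44 to −0.07, edgeR adjusted p = 0.157) and was the 1 factor whose RBM5 KO libraries all lay below CTRL in CPM, a separation seen in 11.7% of all genes. In TPM its groups overlapped, with 84.04 in KO 3 and 76.95 in CTRL 2. DDX10 measured 25.3, 24.3 and 27.1 CPM in CTRL and 32.6, 28.7 and 28.3 in RBM5 KO (0.22, edgeR adjusted p = 0.305). UTP3, a processome protein, measured 28.9, 26.2 and 28.4 CPM in CTRL and 34.3, 29.6 and 31.8 in RBM5 KO (0.20, edgeR adjusted p = 0.357). DDX10, UTP3 and UTP15 were the 3 factors whose RBM5 KO libraries all lay above CTRL in CPM, where 11.2% of all genes did. For UTP15 the nearest libraries were CTRL 2 at 14.08 CPM and KO 3 at 14.09. In TPM the groups overlapped for DDX10 (12.97 in KO 3, 14.23 in CTRL 2) and UTP15 (7.95 in KO 2, 9.69 in CTRL 1), but not for UTP3.

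The sign of the median in RBM5 KO turned on single libraries. Without RBM5 KO 1 it was −0.12, with 34 factors negative, and without RBM5 KO 2 it was 0.07, with 11 negative. Without RBM5 KO 1, NHP2 (−0.39, edgeR adjusted p = 0.0379) and PES1 (−0.42, edgeR adjusted p = 0.0149) were called lower, 2 of 45 where 3.77% of all genes were. Without both RBM5 KO 1 and CTRL 3, BOP1 joined them (−0.33, edgeR adjusted p = 0.0318), 3 of 45 where 6.68% of all genes were lower. These genes are named after their values were seen, and with all libraries their log2 fold changes were −0.19, −0.26 and −0.14. Either count of factors was close to the share called among all genes.

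Compared directly, 33 of the 45 factors (73.3%) were lower in RBM5 OE than in RBM5 KO and 1 was higher, where 20.6% of all 14754 genes were lower and 19.5% higher. This comparison shares the RBM5 OE libraries with that against CTRL and is not independent of it. The median log2 difference of the factors was −0.52, and −0.36 without RBM5 KO 1, with 31 lower. For 33 factors all RBM5 OE libraries lay below all RBM5 KO libraries (26% of all genes), and for 1 above (26.6%). NOP2 (−0.70, SE 0.0903, edgeR adjusted p = 0.000127), RRS1 (−0.77, SE 0.100, adjusted p = 0.000131) and POLR1B (−0.70, SE 0.0823, adjusted p = 6.66e-05) were among the factors with the smallest p. BOP1 differed by −1.02 and RRP9 by −0.95.

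UTP6 was the 1 factor higher in RBM5 OE than in RBM5 KO (0.29, SE 0.0728, edgeR adjusted p = 0.0074), and it was called whichever single library was left out, with values from 0.27 to 0.33. Its order of mean levels was 115 ± 5.15 in RBM5 OE, 112 ± 6.68 in CTRL and 94 ± 3.47 CPM in RBM5 KO (mean ± SD, n = 3), and RBM5 OE and CTRL did not differ beyond their spread. Of the 11 factors not called against RBM5 KO, NHP2, NOC4L, RRP1, MRTO4 and EBNA1BP2 were called against CTRL. Of the 34 calls against RBM5 KO, 28 held whichever single library was left out. Those of FBL, UTP18, NOP56, PES1, NCL and WDR12 were each lost without at least 1 RBM5 OE library. Without RBM5 KO 1 the calls of FBL (adjusted p = 0.155) and UTP18 (0.0514) were lost, and that of FBL was also lost without KO 3 or any 1 of the CTRL libraries (0.0571 to 0.069).

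**Figure D3:**
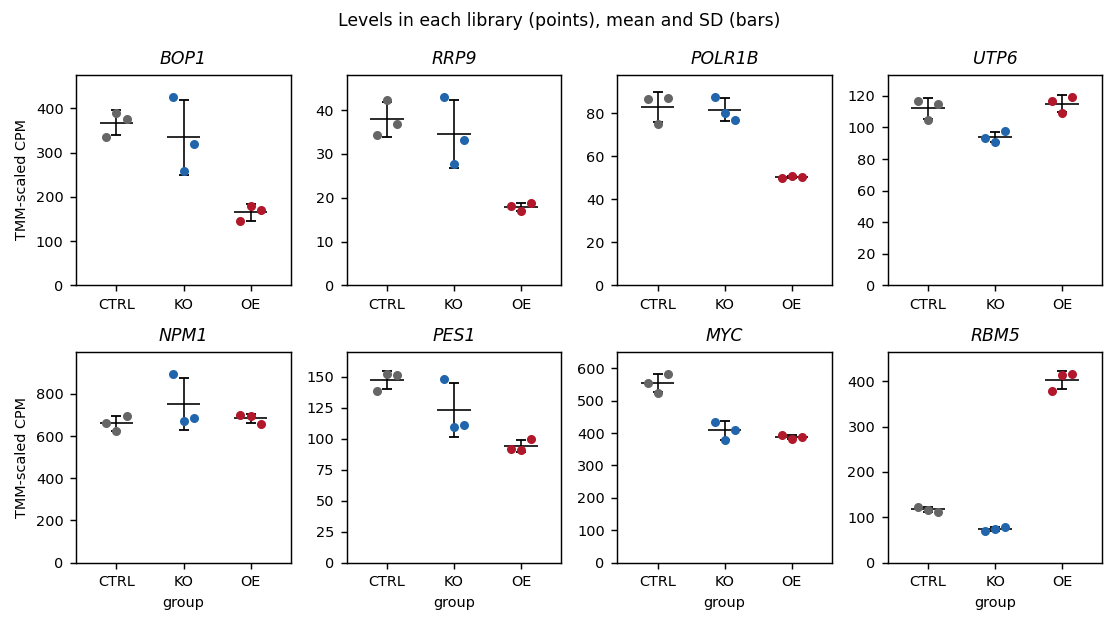
TMM-scaled CPM of 6 ribosome biogenesis factors, MYC and RBM5 in each library (points) with the mean and SD of 3 libraries (bars), on axes that start at 0. BOP1, RRP9, POLR1B and PES1 are lowest in RBM5 OE, UTP6 in RBM5 KO, NPM1 overlaps among the groups, and MYC is below CTRL in both other groups.

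MYC measured 555, 525 and 582 CPM in CTRL, 436, 379 and 410.5 in RBM5 KO and 394, 383 and 388 in RBM5 OE. It was below CTRL in all 6 libraries of the other groups. The log2 fold change was −0.51 in RBM5 OE (SE 0.0624, edgeR adjusted p = 9.44e-05) and −0.44 in RBM5 KO (SE 0.0861, edgeR adjusted p = 0.0363). The call in RBM5 KO was lost without any 1 of CTRL 1, CTRL 2, CTRL 3, KO 2 or KO 3, with adjusted p from 0.0855 to 0.177, and it was 0.138 with the replicate number as a block. Between RBM5 OE and RBM5 KO, MYC differed by −0.07 (95% interval −0.23 to 0.08, edgeR adjusted p = 0.449), while the median of the factors differed by −0.52. MYC's part in the levels of the factors was not tested.

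A consensus binding sequence of MYC, the E-box CACGTG, was searched on both strands in RefSeq promoters of GRCh38.p14, from 250 bases before to 50 after each gene start. Of the 45 factors 38 had a promoter in the table, and 13 of these (34.2%) held it, compared with 7.3% of all 35116 promoters and 10.4% of the 9350 that matched a gene tested in RBM5 OE. It was held by 11 of 33 factors that fell in RBM5 OE (33.3%) and by 2 of 5 that were not called (40%), NOP14 and NOC3L. The ETS motif CCGGAAG was held by 12 of 38 (31.6%), compared with 10.3% of all promoters and 19.6% of those of tested genes, and FBL, NOC3L, RRP9 and UTP18 held both. Neither motif contains the other. A match is a description of these letters and not evidence of binding.

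Of the 10 factors with the smallest p in RBM5 OE, 7 had a promoter in the table, BOP1, RRS1 and RRP12 being the exceptions. RRP9 and PES1, 2 of these 7, held the E-box, and for that reason the surrounding stretch is shown for each. Both genes were lower in every RBM5 OE library than in any CTRL library, as were 39 of the 45 factors in all. Capitals mark the E-box. In RRP9 (GRCh38.p14 chr3:51941885-51942009, minus strand) it begins 5 bases before the gene start, and in PES1 (chr22:30591891-30591997, minus strand) at base 14 after it.
RRP9: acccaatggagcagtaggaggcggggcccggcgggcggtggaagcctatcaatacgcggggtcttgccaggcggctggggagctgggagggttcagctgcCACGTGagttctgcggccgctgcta
PES1: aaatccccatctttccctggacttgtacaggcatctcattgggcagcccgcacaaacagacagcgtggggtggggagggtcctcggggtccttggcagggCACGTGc

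The 45 genes lie on 18 chromosomes of GRCh37. An annotated snoRNA gene lies within 8 of them (NOP56, NOP58, DKC1, NCL, NOL11, TSR1, PPAN and GNL3), and 7 of these 8 fell in RBM5 OE, with a median of −0.48, while 31 of the other 37 fell, with a median of −0.46. In the GENCODE annotation used for coordinates, exons of 16 factors overlap exons of a gene on the opposite strand, NHP2 and PES1 among them. The reads were counted without strand. Exons of 3 factors (PPAN, RRS1 and NOP2) overlap a gene on their own strand there. That annotation need not be the one used for counting, and whether these genes were counted beside the factors was not checked. The counts of these factors may therefore be uncertain.

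In a wider list of 129 other ribosome factors, 65 fell in RBM5 OE (50.4%) and 5 rose (3.88%), where 20.2% of all genes were lower and 19.8% higher, and the median log2 fold change was −0.24. EXOSC4, an exosome subunit (−1.32), PWP2, a processome protein (−0.88), WDR18, a pre-60S factor (−0.83), and NOP9 (−0.73) had the smallest p. The 5 that rose were EXOSC8 (0.49), KRR1 (0.29), RSL24D1 (0.25), TEX10 (0.24) and POLR1D (0.20). Apart from EXOSC8, each of these calls was lost when single libraries were left out, that of KRR1 without OE 2 (adjusted p = 0.0901), RSL24D1 without CTRL 2, OE 1 or OE 2 (up to 0.117), TEX10 without CTRL 1, CTRL 2, OE 1 or OE 2 (up to 0.148) and POLR1D without any library but CTRL 3 (up to 0.148). In RBM5 KO 1 of the 129 was called, RSL24D1, a pre-60S protein (−0.43, edgeR adjusted p = 0.031), where 1.67% of all genes were lower. This call was lost without any 1 of CTRL 1, CTRL 2, CTRL 3, KO 2 or KO 3 (adjusted p from 0.0682 to 0.174), and it was 0.141 with the replicate number as a block. TWISTNB, EXOSC8 and LTV1 had the next smallest p in RBM5 KO and were not called. DESeq2 called TWISTNB (0.52, adjusted p = 0.00468) and EXOSC8 (−0.50, adjusted p = 0.00858). Without KO 1 edgeR called both too (0.64, adjusted p = 0.00615, and −0.63, adjusted p = 0.00454). Their highest adjusted p over single libraries left out was 0.244 and 0.273. With all 9 libraries in the fit edgeR also called LTV1 (0.33, adjusted p = 0.0355). Against RBM5 KO 65 of the 129 were lower and 6 higher in RBM5 OE, where 20.6% of all genes were lower and 19.5% higher. MDN1, EXOSC4, EIF6 and NOP9 had the smallest p there and were called lower whichever single library was left out. Their log2 differences over these fits ran from −0.87 to −0.82, −1.19 to −0.99, −0.74 to −0.63 and −0.66 to −0.61.

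Few genes for the ribosomal proteins themselves were called. Of 79 genes for cytosolic ribosomal proteins, 1 fell (1.27%) and 2 rose (2.53%) in RBM5 OE, where 20.2% of all genes were lower and 19.8% higher. Their median log2 fold change was 0.04, with a range from −0.47 to 0.20. In RBM5 KO edgeR called 0 of them, where 1.67% of all genes were lower and 0.837% higher, and 1 was lower at an unadjusted p under 0.05. Their summed level was 233500 to 244800 TPM in CTRL and 253300 to 260400 in RBM5 OE. The summed level of the 45 biogenesis factors was 4796 to 5653 TPM in CTRL, 4820 to 6524 in RBM5 KO and 4266 to 4531 in RBM5 OE. The biogenesis factors in RBM5 OE thus summed below every library of the other groups, while the ribosomal proteins summed above CTRL.

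**Figure D4:**
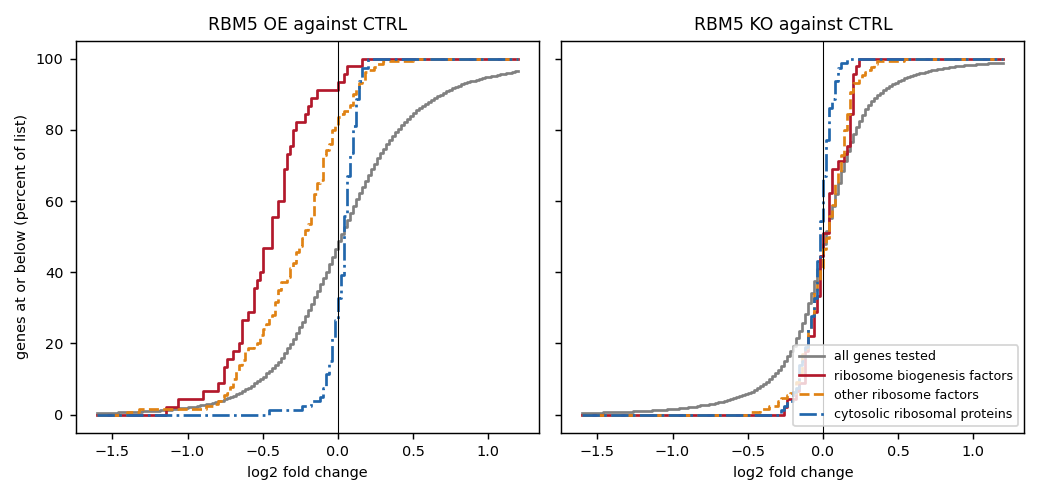
Cumulative share of genes (percent of each list) at or below a log2 fold change, for RBM5 OE (left) and RBM5 KO (right) against CTRL. In RBM5 OE the curve of the biogenesis factors lies left of the other ribosome factors, with medians of −0.46 and −0.24, and the ribosomal proteins stand near 0. In RBM5 KO the lists lie near 0, the biogenesis factors with a median of −0.005.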

How the data were processed

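RNA-seq libraries of MOLM13 cells (CTRL, RBM5 KO and RBM5 OE, 3 biological replicates each) were grouped by their labels. According to the submitters' notes, total RNA was depleted of ribosomal RNA, paired-end reads were trimmed with Trim Galore, aligned with STAR 2.7.1a to GRCh37.p13, marked for duplicates with GATK 4.1.2.0 and counted with RSEM without strand, whereas the study's methods name Salmon. The deposited gene table holds expected counts from RSEM, which the authors did not scale, and the deposited TPM values are scaled by length and library. The counts were rounded, 92 spike-in entries at 0 were left out, and 57820 genes remained. Libraries held 25522952 to 27871988 counts.

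Genes were filtered with filterByExpr and scaled by TMM (factors 0.9698 to 1.0254) in R 4.3.3 with edgeR 4.0.16. For either comparison with CTRL the 6 libraries involved were fitted, and for RBM5 OE against RBM5 KO all 9. Genes were tested by edgeR's quasi-likelihood test, and p-values were adjusted over all tested genes by the Benjamini-Hochberg method. Single-gene p-values are from this test unless another is named, and a gene was called, or said to rise or fall, at an adjusted p under 0.05. SE is that of the log2 fold change, and intervals cover the spread among replicates. Scripts were tested on simulated data.

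The 45 members and all other gene lists were chosen with earlier results of these data known. Per-library values are given for the 3 members of each role with the smallest p in RBM5 OE (2 for RNA polymerase I), the 4 with the smallest p in RBM5 KO, any member that rose, the 3 with the smallest absolute change in RBM5 OE, RBM5 and MYC, and from the wider list the 4 with the smallest p in a comparison are named. NOP58 and GAR1 completed their roles. Of 130 symbols listed for other ribosome factors 129 were matched. NIFK was not, and MKI67IP, an older symbol of the same gene, was matched.

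Alternatives were DESeq2 1.42.0, limma-voom (limma 3.58.1), RLE scaling, library totals alone, no filter, a CPM of at least 1 in 3 libraries, limma on log2(TPM + 1) and log2(TPM + 0.1), other libraries in the fit, the replicate number as a block, a log2 fold change over 0.5, and leaving out libraries. Gene coordinates are from GENCODE lifted to GRCh37, where all 45 members matched, and promoters from RefSeq on GRCh38.p14. Plots were made in Python 3.11.15 (matplotlib 3.10.9).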

Additional observations from a re-analysis of the deposited data

How the results depend on the processing

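The count of factors lower in RBM5 OE than in CTRL (38) lay between 31 and 40 under every alternative except a log2 fold change over 0.5, which left 21. No alternative called a factor higher. Apart from that fold threshold, 27 of the 38 calls held in every alternative, and 25 of the 34 against RBM5 KO. The limits were 31 with log2(TPM + 1) or log2(TPM + 0.1), 33 with all 9 libraries in the fit, and 36 to 40 when single libraries were left out. In RBM5 KO the count lower was 0 under all alternatives but 2, 2 factors without KO replicate 1 and 3 without CTRL replicate 3 and KO replicate 1, and ranged from 0 to 2 over single libraries. Against RBM5 KO, 28 to 36 factors were lower in RBM5 OE over single libraries and 28 with either TPM scale. UTP6 was the 1 factor higher except under a log2 fold change over 0.5, which left 0.

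Values near 0 changed sign. NOP14 in RBM5 OE was −0.01 and became 0.0278 with library totals alone, 0.0168 with log2(TPM + 1) and 0.0171 with log2(TPM + 0.1), and ranged from −0.0706 to 0.0464 over single libraries. UTP6 in RBM5 OE ranged from −0.0124 to 0.0749 and BOP1 in RBM5 KO from −0.347 to 0.0128. The cause was not tested.

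No pairing by replicate number was seen, as correlations of deviations from the group means between same-numbered libraries ran from −0.38 to 0.13. Between differently numbered libraries they ran from −0.29 (CTRL 2 and KO 1) to 0.46 (CTRL 3 and KO 1), with 0.28 for CTRL 2 and KO 3. With 3 libraries per group these values cannot exclude a pairing in another order, for which the block below does not adjust. With the replicate number as a block, 38 factors were lower in RBM5 OE, 0 changed in RBM5 KO, and 32 were lower and 1 higher in RBM5 OE than in RBM5 KO. With 3 libraries per group, a change of a factor in RBM5 KO within its own 95% interval was not excluded. Scaling by library totals alone moved the median of all genes in RBM5 OE from 0.01 to 0.05.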
